A study of Mus musculus with 2 samples.

Results

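The endothelial tip cell set described here holds 10 genes of 53380 features: Esm1, Pdgfb, Cxcr4, Kit, Plaur, Mcam, Cd34, Cd276, Kcne3 and Trp53i11. They are genes for surface or secreted proteins linked with endothelial tip cells, and they were chosen by their measured levels across the cell classes and both libraries of these data. Which classes were high for them is therefore a description and not a test. The series measured RNA in single endothelial cells of mouse sciatic nerve that carried a R26-TomatoLSL reporter switched on by the tamoxifen-inducible Cdh5(PAC)-CreERT2. Cells positive for tdTomato and negative for CD45 were sorted from the bridge, the tissue that joins the nerve stumps, 7 days after injury (the injured library) and from uninjured nerves (the intact library). Animals of both groups carried the same reporter and Cre, and nerves were pooled, so each condition is 1 library. No test between conditions exists, and an effect of the animals, the sort or the sequencing run cannot be told apart from one of injury. Beyond "adult", neither age nor sex nor the number of animals is stated.

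Tip cells are the endothelial cells at the front of a growing vessel sprout. They extend filopodia, follow gradients of VEGF-A and other guidance cues, digest matrix and secrete PDGF-B to recruit pericytes, while stalk cells behind them divide and form the lumen. Delta-like 4 on a tip cell activates Notch in its neighbours and keeps them from becoming tip cells. Much of the set is known from sprouting vessels of the mouse retina and from tumours. In a cut peripheral nerve, vessels cross the bridge ahead of the Schwann cells and axons that follow.

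The counts are unique molecular identifiers (UMIs), each of which marks 1 captured RNA molecule. After 48 injured and 100 intact cells had been left out because their barcode held at least 5 times as many UMIs in the other library, the 9 classes named EC_ in the authors' cell table held 1274 injured cells with 19989024 UMIs and 718 intact cells with 4542225 UMIs. Median depth was 11684 UMIs per injured cell and 4461 per intact cell. The libraries shared 298 of 2023 injured and 1618 intact barcodes. EC_TIP, the class that the authors' table labels as tip cells, held 100 injured cells, with a median of 16011.5 UMIs, and 4 intact cells after 17 of 21 had been left out for a shared barcode. The 10 tip cell markers other than the members summed to 1417 CPM (UMIs divided by all UMIs of the same cells and scaled to a fixed total) in injured EC_TIP, against 153 to 588 CPM in the other injured endothelial classes, and 9 of the 10 were detected, with Ramp3 at 0. Among markers of other cell types, pericyte and smooth muscle markers were the highest in EC_TIP, at 221 CPM with Myh11 and Notch3 at 0 and 6 of 8 detected. Macrophage and monocyte markers summed to 6.60 CPM there with 6 of 8 at 0, fibroblast markers to 39.6 CPM with Pdgfra at 0, and all 6 mast cell markers were at 0. Over all 9 classes, pericyte and smooth muscle markers summed to 220 CPM in the injured library, against 1061 CPM in the intact one.

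Promoter sequences are shown for 4 members to set the base composition of the genes beside their levels: Esm1 and Cxcr4, whose EC_TIP levels stood furthest above the other injured classes, and Cd276 and Kit, which were nearly absent from the intact library. RefSeq (GRCm38.p6) gave an entry for 9 of the 10 members, and Pdgfb had none. Each run is the 250 bases before a RefSeq start site, 5′ to 3′ on the gene's strand, with capitals where 1 of 6 motifs matched on either strand. The gene positions given below are from GENCODE and differ from RefSeq for some genes. By them the Cd276 run lies wholly inside its gene, and the Kit run partly inside.
Esm1, chr13:113209409-113209658, plus strand: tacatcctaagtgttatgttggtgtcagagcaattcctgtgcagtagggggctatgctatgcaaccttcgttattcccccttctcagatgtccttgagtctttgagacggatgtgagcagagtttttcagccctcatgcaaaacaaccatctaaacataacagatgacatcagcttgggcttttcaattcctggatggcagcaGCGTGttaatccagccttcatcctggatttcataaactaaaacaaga
Cxcr4, chr1:128592300-128592549, minus strand: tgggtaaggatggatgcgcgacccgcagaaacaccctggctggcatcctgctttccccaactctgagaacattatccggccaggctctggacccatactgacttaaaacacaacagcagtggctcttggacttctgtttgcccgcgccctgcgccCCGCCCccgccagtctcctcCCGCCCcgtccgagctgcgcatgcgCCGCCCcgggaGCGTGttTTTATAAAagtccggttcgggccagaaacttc
Cd276, chr9:58555034-58555283, minus strand: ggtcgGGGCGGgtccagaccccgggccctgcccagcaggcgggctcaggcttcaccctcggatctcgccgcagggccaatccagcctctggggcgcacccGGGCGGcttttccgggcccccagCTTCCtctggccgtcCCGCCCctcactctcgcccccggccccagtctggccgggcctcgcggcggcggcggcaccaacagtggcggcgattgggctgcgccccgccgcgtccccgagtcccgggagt
Kit, upstream of 2 start sites, chr5:75574737-75574986, plus strand: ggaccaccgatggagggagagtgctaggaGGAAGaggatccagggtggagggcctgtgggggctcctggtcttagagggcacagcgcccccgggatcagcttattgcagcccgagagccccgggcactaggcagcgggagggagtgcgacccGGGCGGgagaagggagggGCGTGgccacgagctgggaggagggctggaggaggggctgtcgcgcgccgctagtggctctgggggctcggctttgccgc
The Esm1 stretch held 3 CpG dinucleotides at 44.0% G+C, against 19 CpG in Cxcr4, 29 in Cd276 and 17 in Kit, and a median of 6 CpG and 52.4% G+C over 32851 promoters of the same length. The motifs were chosen after the sequences had been seen. Cxcr4 held a TATA box (TATAAA, in 12.4% of all promoters) that ended 24 bases before the start and overlapped a match on the opposite strand. It also held 3 GC boxes (GGGCGG, 32.7% of promoters), as did Cd276. The hypoxia core (ACGTG or GCGTG, 38.6%) stood in Esm1, 42 bases before the start, and in Cxcr4 and Kit. Among members not printed, Plaur held the AP-1 motif (TGANTCA, 6.75%) 62 bases before its start, as did Kcne3 30 bases before 1 of its 2 start sites, and Mcam the CRE motif (TGACGTCA, 1.55%) 21 bases before its start. The ETS core (GGAAG, 64.1%) was in Cd276 and Kit and not in Esm1 or Cxcr4. These matches describe letters in a window, and no binding was measured here.

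In the injured library, 7 of the 10 genes had their highest level in EC_TIP: Esm1, Pdgfb, Cxcr4, Kit, Mcam, Cd276 and Trp53i11. This order and the levels by class cover classes of at least 20 cells, which leaves out 13 injured EC_CAP-PV+ cells and intact EC_TIP, EC_IMMAT and EC_PROLIF. For each of the 7, the ratio of EC_TIP to the next class excluded 1 within counting error. Plaur and Kcne3 were highest in the arterial class EC_ART and Cd34 in the capillary class EC_CAP-PV-, none of them beyond counting error of the next class. The 13 injured EC_CAP-PV+ cells held 106 Cd34 UMIs, or 1221 CPM, and 1 Kcne3 UMI, or 11.5 CPM, both above those classes. The intact library, where EC_TIP was nearly absent, had another order. There Esm1, Pdgfb and Cd34 were highest in the capillary class EC_CAP-PV+, Trp53i11 and Kit in EC_CAP-PV-, and Cxcr4 and Kcne3 in EC_ART. Plaur was highest in the venous class EC_VEN-PV+ and Mcam in the cells labelled INTERMEDIATE. Of these, only Esm1, Pdgfb, Trp53i11, Kit and Kcne3 exceeded the next class beyond counting error. Cd276 had 1 UMI in EC_CAP-PV- and 1 in EC_VEN-PV-, and so no leading class.

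**Figure D1:**
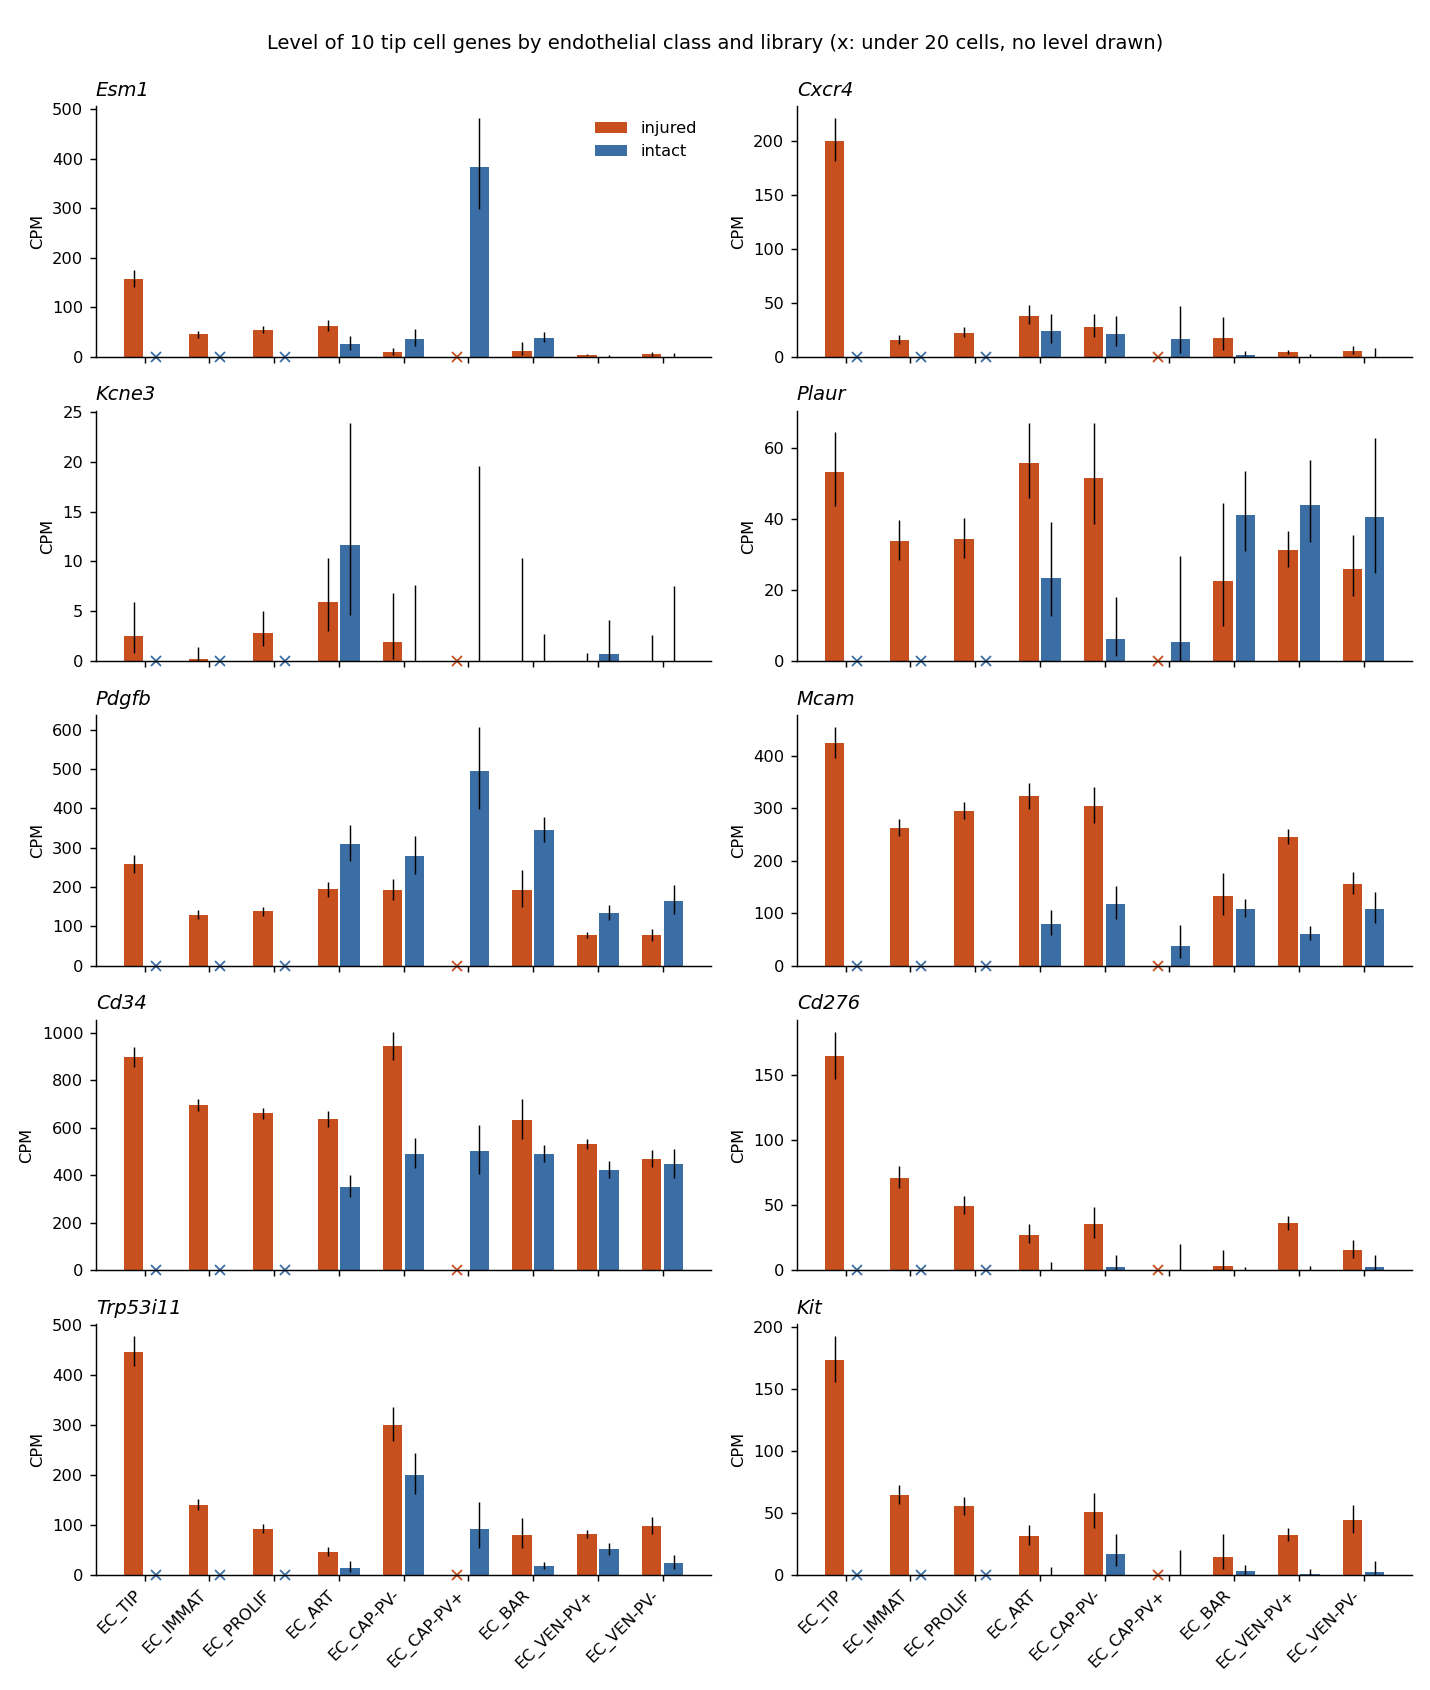
Level of each of the 10 genes in CPM (vertical axes, each with its own scale) by endothelial class, with injured bars left of intact bars and lines for exact Poisson 95% intervals of the count. Crosses mark classes under 20 cells. The injured EC_TIP bar is the tallest injured one for 7 genes, and the intact EC_CAP-PV+ bar stands out for Esm1 at 383 CPM and Pdgfb at 494 CPM.

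Of the secreted members, Esm1 was led by EC_TIP after injury and by EC_CAP-PV+ in intact nerve, and so was Pdgfb, whose lowest classes were venous in each library. Esm1 (ENSMUSG00000042379.8, chr13:113209659-113218098, plus strand, protein coding) encodes endocan, a proteoglycan that endothelial cells release and a widely used tip cell marker. In injured EC_TIP cells it had 309 UMIs or 157 CPM (exact Poisson 95% interval 140 to 175), against 62.5 in EC_ART, 53.8 in the dividing class EC_PROLIF and 44.6 in the immature class EC_IMMAT, and these neighbouring values did not differ beyond counting error. Esm1 was 11.3 CPM or lower in the barrier class EC_BAR, in EC_CAP-PV- and in both venous classes. The intact library reached 383 CPM (299 to 482) in EC_CAP-PV+, above the injured EC_TIP value, and 38.2 in EC_BAR, 35.0 in EC_CAP-PV- and 24.9 in EC_ART. Those 42 EC_CAP-PV+ cells held 72 Esm1 UMIs, of which 25 came from 1 cell, and 22 of the 42 cells (52.4%) had at least 1. Intact venous cells had 0 Esm1 UMIs, which allows up to 2.23 CPM in EC_VEN-PV+ and 6.09 CPM in EC_VEN-PV-. The 13 injured EC_CAP-PV+ cells held 2 Esm1 UMIs, too few for a ratio.

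Pdgfb (ENSMUSG00000000489.6, chr15:79995874-80014977, minus strand, protein coding) encodes the PDGF-B chain that binds PDGF receptor beta on pericytes. Its level was 258 CPM (236 to 281) in injured EC_TIP, then 193 in EC_ART, 192 in EC_BAR and 191 in EC_CAP-PV-, with both venous classes lowest at 78.0 in EC_VEN-PV+ and 76.6 in EC_VEN-PV-. Intact levels were 494 CPM (399 to 606) in EC_CAP-PV+, 344 in EC_BAR, 309 in EC_ART and 278 in EC_CAP-PV-, and again lowest in the venous classes, at 165 in EC_VEN-PV- and 134 in EC_VEN-PV+. Among classes of at least 20 cells, venous cells were thus the low end in each library. The 13 injured EC_CAP-PV+ cells, not ranked here, held 19 Pdgfb UMIs among 86810 UMIs, a higher share than in injured EC_ART. Every intact class with at least 20 cells in each library had a higher Pdgfb CPM than the same class after injury.

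Among the receptors, Cxcr4 was the member most concentrated in EC_TIP. Cxcr4 (ENSMUSG00000045382.6, chr1:128588199-128592293, minus strand, protein coding) encodes the receptor of the chemokine CXCL12. It had 394 UMIs in injured EC_TIP, or 199.9 CPM (181 to 221), against 37.9 in EC_ART, 27.6 in EC_CAP-PV-, 22.1 in EC_PROLIF, 15.4 in EC_IMMAT and at most 4.87 in the venous classes. The intact library held 30 Cxcr4 UMIs in all 9 classes. Those in classes of at least 20 cells gave 23.2 CPM in EC_ART, 20.6 in EC_CAP-PV-, 15.9 in EC_CAP-PV+ and 1.47 in EC_BAR, with 0 UMIs in both venous classes. Arterial and EC_CAP-PV- cells were the leading classes after EC_TIP in the injured library and led the intact one.

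Kit (ENSMUSG00000005672.12, chr5:75574916-75656722, plus strand, protein coding) encodes the receptor tyrosine kinase for stem cell factor, best known from blood progenitors, mast cells and melanocytes. Injured EC_TIP cells had 173 CPM (155 to 192), INTERMEDIATE cells 91.6, EC_IMMAT 64.4, EC_PROLIF 55.2 and EC_CAP-PV- 50.4, and EC_BAR was lowest at 14.1. The intact library held 16 Kit UMIs in the 9 classes, 8 of them in EC_CAP-PV- at 16.5 CPM, and no other class of at least 20 cells was above 2.94 CPM. Mast cell markers were at 0 UMIs in each endothelial class of each library.

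Plaur (ENSMUSG00000046223.10, chr7:24462484-24475968, plus strand, protein coding) encodes the receptor of urokinase, which focuses plasmin formation on the cell surface. Its injured levels were close together: 53.3 CPM (43.6 to 64.5) in EC_TIP, 55.6 in EC_ART and 51.3 in EC_CAP-PV- did not differ, neighbour from neighbour, beyond counting error, and the remaining classes of at least 20 cells ran from 34.3 CPM in EC_PROLIF to 20.8 in INTERMEDIATE cells. In the intact library the venous and barrier classes led, with 43.9 CPM in EC_VEN-PV+, 41.1 in EC_BAR and 40.6 in EC_VEN-PV-, above 6.17 in EC_CAP-PV- (3 UMIs) and 5.32 in EC_CAP-PV+ (1 UMI). EC_CAP-PV- cells were thus among the high classes for Plaur after injury and among the low ones in intact nerve. The 13 injured EC_CAP-PV+ cells had 0 Plaur UMIs.

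The adhesion and surface proteins were spread more widely. Mcam (ENSMUSG00000032135.15, chr9:44134469-44142727, plus strand, protein coding) encodes CD146, an adhesion molecule of endothelial cells and pericytes. Its level was 425 CPM (396 to 454) in injured EC_TIP and between 132 (EC_BAR) and 323 (EC_ART) in the other injured classes, against 37.2 (EC_CAP-PV+) to 144 (INTERMEDIATE) in the intact library. Cd34 (ENSMUSG00000016494.9, chr1:194938819-194961279, plus strand, protein coding) encodes a sialomucin found on endothelial and blood progenitor cells and, in the retina, on tip cell filopodia. It had 897 CPM (856 to 940) in injured EC_TIP and 943 (885 to 1004) in EC_CAP-PV-, a ratio whose interval included 1, and 420 to 694 CPM in the remaining injured classes, against 223 to 499.6 CPM in the intact ones, all of at least 20 cells. Mcam overlaps the antisense gene Gm10687, which had 125 injured and 52 intact UMIs, and Cd34 overlaps the antisense gene Gm16897, which had 15 injured and 3 intact UMIs. Whether the counting used strand is not stated.

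Cd276 (ENSMUSG00000035914.11, chr9:58524298-58555437, minus strand, protein coding) encodes B7-H3, an immune checkpoint protein of the B7 family that is also known from tumour vessels. It was graded across the injured classes: 164 CPM (146 to 183) in EC_TIP, 71.0 in EC_IMMAT, 49.5 in EC_PROLIF and 35.8 in EC_VEN-PV+, each of the first 3 above the next beyond counting error, then 35.2 in EC_CAP-PV-, 27.1 in EC_ART, 15.3 in EC_VEN-PV- and 2.82 in EC_BAR. The intact library held 2 Cd276 UMIs in all 9 endothelial classes, 1 in EC_CAP-PV- and 1 in EC_VEN-PV-. An overlapping gene on the other strand, Gm10657, had 18 injured and 2 intact UMIs.

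The other two members differ from one another in abundance and place. Kcne3 (ENSMUSG00000035165.14, chr7:100176502-100184869, plus strand, protein coding) encodes a beta subunit of voltage-gated potassium channels and is listed among tip cell genes of the mouse retina. It was near the limit of detection, with 33 injured and 8 intact UMIs over the 9 classes. Of these, EC_ART held 12 injured UMIs (5.91 CPM) and 7 intact UMIs (11.6 CPM), and EC_TIP held 5 injured UMIs (2.54 CPM, 0.824 to 5.92). A tip cell pattern of Kcne3 was thus not detectable from these counts. Trp53i11 (ENSMUSG00000068735.14, chr2:93187548-93201759, plus strand, protein coding) is named as a p53-inducible gene. It had 446 CPM (417 to 477) in injured EC_TIP, 300.4 in EC_CAP-PV-, 179 in INTERMEDIATE cells and 139.5 in EC_IMMAT, and was lowest in EC_ART at 45.3. The intact library had a like order, with EC_CAP-PV- highest at 199.6 CPM, EC_CAP-PV+ at 90.4 and EC_ART lowest at 13.3.

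Shares of cells in which a member was seen follow depth, so each cell was also thinned to 3000 UMIs. Of the 95 injured EC_TIP cells deep enough, 40% (exact binomial 95% interval 30.1 to 50.6) had a Cxcr4 UMI, and 68.0% of all 100 before thinning. The thinned share was 26.3% (17.8 to 36.4) for Esm1 and 48.0% before thinning. Trp53i11 was found in 61.1% of thinned EC_TIP cells, Mcam in 70.5%, Cd34 in 89.5%, Pdgfb in 49.5%, Kit in 36.8%, Cd276 in 34.7% and Plaur in 13.7%, and Kcne3 in 0 of 95. For comparison, 234 injured cells with no class in the table and a fibroblast-like marker profile were thinned in the same way. They gave 0.855% for Cxcr4, 1.28% for Esm1, 2.56% for Pdgfb, 3.42% for Cd276, 3.42% for Plaur and 0% for Kit. Their median depth before thinning was 11662.5 UMIs, against 16011.5 in EC_TIP. The same fibroblast-like cells gave 19.2% for Mcam, 17.9% for Cd34 and 11.5% for Trp53i11. Whether their shares came from free RNA or from their own expression was not tested.

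EC_TIP made up 7.85% of the injured endothelial cells and 9.86% of their UMIs. It held 57.3% (53.5 to 61.0) of all Cxcr4 UMIs and 34.9% of those of Esm1, 31.4% of Trp53i11, 29.2% of Cd276 and 29.1% of Kit. The shares of Pdgfb (18.3%), Kcne3 (15.2%), Mcam (15.0%), Plaur (14.1%) and Cd34 (13.4%) were closer to that of all UMIs. Much of the set's RNA therefore lay outside EC_TIP for each gene other than Cxcr4. Single cells with at least 3 Esm1 UMIs numbered 101 in the injured endothelium, of which 34 were EC_TIP, and 46 of 76 such cells for Cxcr4 were EC_TIP. In the intact library 45% of the 160 Esm1 UMIs came from EC_CAP-PV+.

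**Figure D2:**
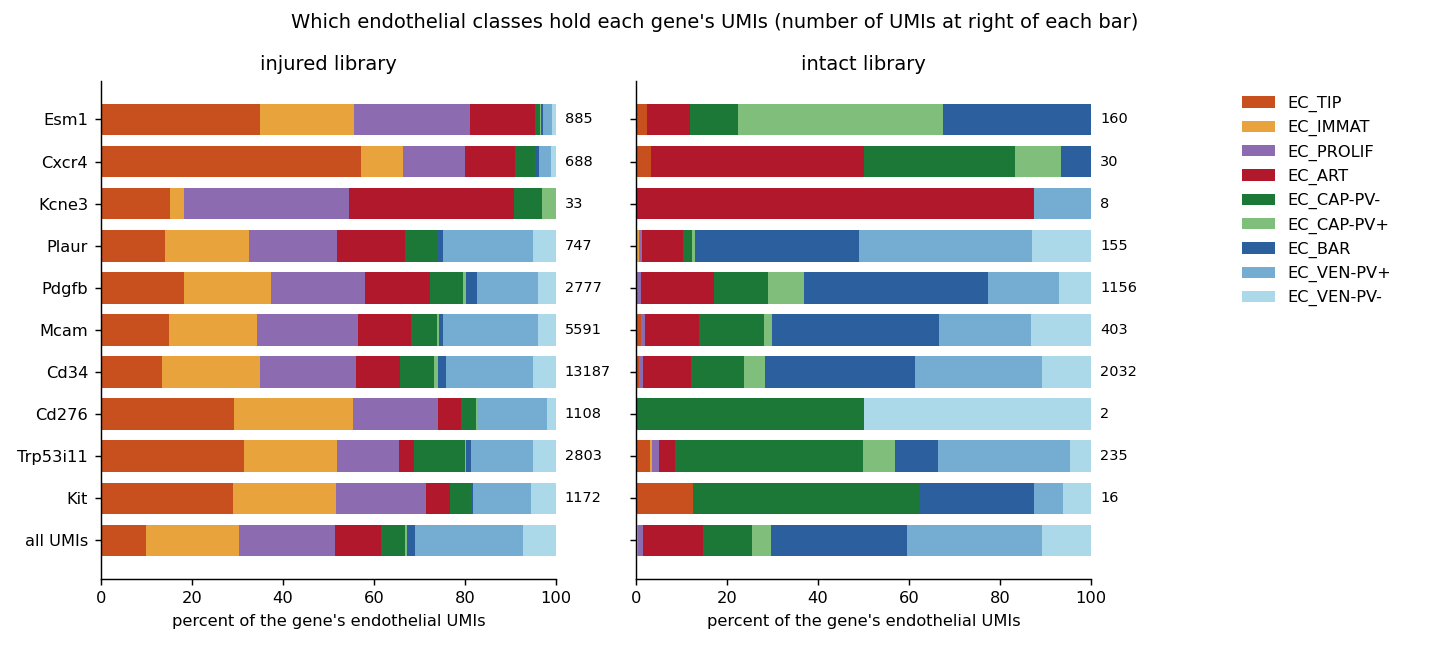
Percent of each gene's endothelial UMIs (horizontal axes) held by each of the 9 endothelial classes, injured library at left and intact library at right, with the number of UMIs beside each bar and all UMIs in the bottom bar. EC_TIP holds 57.3% of injured Cxcr4 UMIs against 9.86% of all UMIs, and EC_CAP-PV+ holds 45% of intact Esm1 UMIs.

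For the contrast of EC_TIP with the summed other 8 injured classes, a gene counted as measured if its 2 values averaged 10 CPM or more, and as higher or lower at 2-fold or more after 5 CPM had been added to both. All members except Kcne3 were measured, and of these 9, 6 were higher and 0 lower, where 1.89% of 8032 measured genes were higher and 3.9% lower (5.79% either way). The members were chosen with this contrast known, so nothing is read from that count. Cxcr4 was 12.3-fold higher (exact conditional 95% interval of counting error 10.5 to 14.3), at 199.9 CPM in EC_TIP and 16.3 in the other classes. Esm1 was 4.90-fold higher (4.26 to 5.64), Trp53i11 4.18-fold (3.86 to 4.53), Cd276 3.76-fold (3.29 to 4.29) and Kit 3.75-fold (3.30 to 4.26). Pdgfb was 2.05-fold higher (1.86 to 2.25), on the edge of the threshold: it was under 2-fold with other weights, cells or totals in 6 of 13 alternatives, down to a log2 ratio of 0.83 with classes weighted equally. Mcam at 1.61-fold, Plaur at 1.50-fold and Cd34 at 1.42-fold were under 2-fold.

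For injured against intact cells pooled over the 9 classes, 9 members were measured, and 5 were higher (Cd276, Kit, Cxcr4, Mcam and Trp53i11) and 0 lower, where 4.79% of 8268 genes were higher and 6.82% lower (11.6% either way). The median log2 ratio was 1.36 over the measured members and 0.04 over all measured genes. Of the 9, Cxcr4, Cd276 and Kit passed the filter through the injured library alone, so they had to be higher, and neither the count nor the median supports more than these values. Cd276 had 55.4 CPM in injured cells and 0.440 in intact cells, a ratio of 126 (34.8 to 1041) that rests on 2 intact UMIs. Kit had 58.6 CPM in injured cells and 3.52 in intact cells, 16.6-fold higher (10.2 to 29.2). Cxcr4 had 34.4 CPM in injured cells and 6.60 in intact cells, 5.21-fold higher (3.62 to 7.78). Mcam had 280 and 88.7 CPM in the injured and intact libraries, 3.15-fold higher (2.85 to 3.50), and Trp53i11 had 140 and 51.7 CPM, 2.71-fold higher (2.37 to 3.11). Over the same cells, fibroblast markers summed to 37.7 CPM in the injured and 62.3 CPM in the intact library and macrophage and monocyte markers to 7.90 and 15.4 CPM, and like the pericyte markers these were lower in the injured library. Markers of dividing cells summed to 665 CPM in the injured and 35.7 CPM in the intact library. Platelet markers summed to 20.7 and 13.6 CPM, so both sums moved with the 5 genes. Of the 5 platelet markers, 2 were detected in the injured library, with Ppbp, Gp9 and Gp1bb at 0 UMIs. Without cells that held 2 or more G2/M genes, 5 members were again past 2-fold higher. That cut depends on depth, which differed between the libraries, so nothing is read from this count. The parts of dividing cells and of platelet RNA were not tested.

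Of the measured members, only Pdgfb had a pooled ratio below equality. It had 139 CPM in injured cells and 255 in intact cells, 1.83-fold lower (1.71 to 1.96). Cd34 was 1.47-fold higher (1.41 to 1.55), at 660 CPM in injured cells and 447 in intact cells. Plaur had 37.4 and 34.1 CPM in injured and intact cells, a ratio of 1.10 (0.920 to 1.31), and Esm1 44.3 and 35.2 CPM, a ratio of 1.26 (1.06 to 1.50). Kcne3, with 1.65 and 1.76 CPM, had a ratio of 0.937 (0.424 to 2.35).

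**Figure D3:**
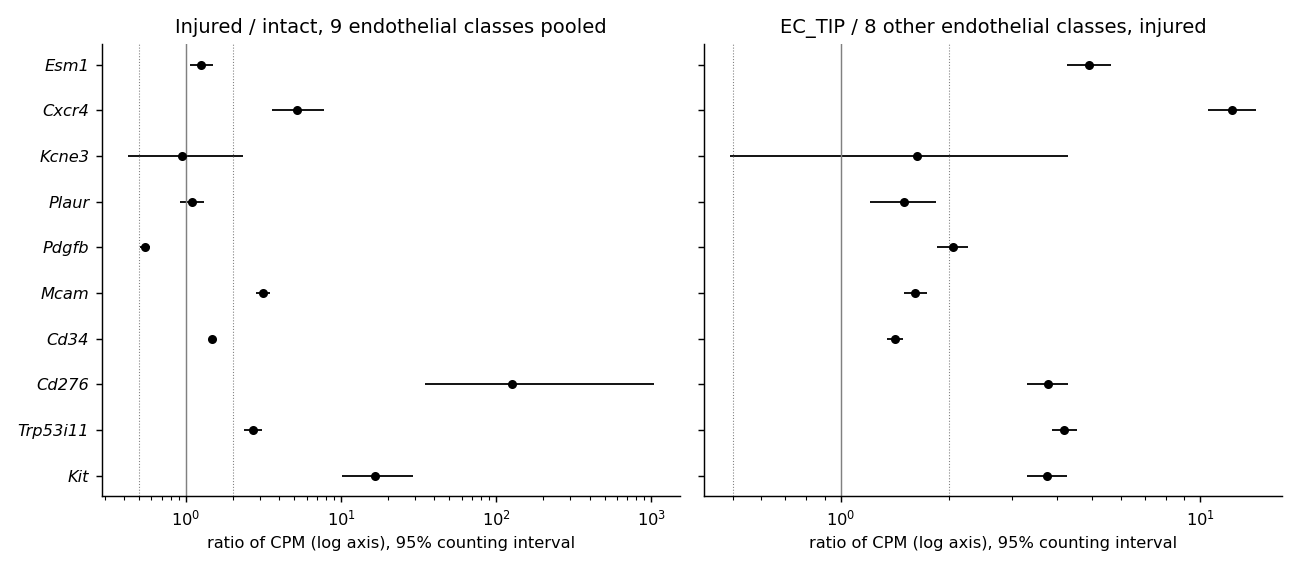
Ratio of CPM on log axes with exact conditional 95% counting intervals: injured over intact cells of the 9 endothelial classes at left, injured EC_TIP over the other 8 classes at right, with dotted lines at 2-fold and a grey line at equality. At left Cd276 lies at 126 with a wide interval from 2 intact UMIs and Pdgfb lies below equality, and at right Cxcr4 lies furthest out at 12.3.

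Because the classes are mixed differently in the 2 libraries, the pooled ratios were recomputed without single classes, an alternative chosen after the data had been seen. Without EC_TIP, Cxcr4 was 2.55-fold higher (1.74 to 3.87; 16.3 CPM in injured and 6.40 in intact cells), which is under the 2-fold threshold once 5 CPM is added, and the direction of Esm1 turned, at 32.0 CPM in injured and 34.4 in intact cells (ratio 0.928, 0.776 to 1.12). Trp53i11 was 2.12-fold higher without EC_TIP, Cd276 98.7-fold and Kit 14.9-fold. Without EC_CAP-PV+, Esm1 was 2.20-fold higher (1.76 to 2.77), at 44.4 CPM in injured and 20.2 in intact cells. Leaving out either the injured EC_TIP cells or the 42 intact EC_CAP-PV+ cells thus put the Esm1 ratio outside its pooled interval. With only the 5 classes of at least 20 cells in both libraries, pooled, Mcam was 2.77-fold higher, Cd276 63.4-fold and Kit 10.7-fold, Trp53i11 (log2 ratio 0.98) and Cxcr4 (0.81) were under the threshold, and Pdgfb was 2.06-fold lower (1.90 to 2.25).

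Within those 5 classes, 1 by 1, Mcam was past 2-fold higher after injury in 3 and Trp53i11 in 3, while Esm1 took opposite directions. In EC_ART, 6 of 9 measured members were higher and 0 lower (6.07% and 7.31% of genes), in EC_CAP-PV- 4 were higher and 1 lower (5.76% and 9.21%) and in EC_VEN-PV+ 3 of 7 were higher and 0 lower (3.77% and 4.61%). EC_BAR had 1 higher and 1 lower of 6 (6.29% and 6.87%), and EC_VEN-PV- 2 higher and 1 lower of 6 (7.91% and 6.34%). Cells labelled INTERMEDIATE, which are shallow, had 3 higher and 1 lower of 7 (14.9% and 16.5%). Some members passed the filter through the injured cells alone, with an intact value under 10 CPM: Cd276 and Kit in EC_ART, EC_VEN-PV+ and INTERMEDIATE cells, Cd276 and Plaur in EC_CAP-PV- and Kit in EC_VEN-PV-. Esm1 in EC_CAP-PV- passed through the intact cells alone. Their direction was fixed by the filter, so nothing is read from the class counts. In EC_BAR both Kit (14.1 CPM in injured and 2.94 in intact cells) and Cd276 (2.82 CPM in injured cells and 0 UMIs in intact ones) were under it.

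In EC_ART, Esm1 had 62.5 CPM in injured and 24.9 in intact cells, 2.51-fold higher (1.47 to 4.62). In EC_CAP-PV- it had 8.56 CPM in injured and 35.0 in intact cells, 4.09-fold lower (1.72 to 10.4), and in EC_BAR 11.3 CPM in injured and 38.2 in intact cells, 3.39-fold lower (1.25 to 12.9). These last ratios rest on 9 and 4 injured UMIs. Cxcr4, 5.21-fold higher in the pool, was under the threshold in both classes where it was measured, at 1.63-fold in EC_ART (0.916 to 3.12) and 1.34-fold in EC_CAP-PV- (0.635 to 3.08). Kit had 31.0 CPM in injured EC_ART cells and 0 UMIs in intact ones, so the exact interval of its ratio began at 4.92. In EC_VEN-PV+ it had 31.8 CPM in injured cells and 0.744 in intact cells from 1 UMI, a ratio of 42.7 (7.55 to 1698). For Cd276, each time against 0 intact UMIs, the exact interval began at 4.28 in EC_ART and at 12.9 in EC_VEN-PV+.

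Mcam was 4.05-fold higher in EC_ART (3.02 to 5.55), 4.02-fold in EC_VEN-PV+ (3.21 to 5.10) and 2.60-fold in EC_CAP-PV- (1.96 to 3.51), and under the threshold at 1.45-fold in EC_VEN-PV- and 1.22-fold in EC_BAR. Trp53i11 was 4.88-fold higher in EC_BAR, 4.36-fold in EC_VEN-PV- and 3.41-fold in EC_ART, and under the threshold at 1.50-fold in EC_CAP-PV-, the intact class where it was highest, and 1.59-fold in EC_VEN-PV+. Plaur was 8.31-fold higher in EC_CAP-PV- (2.70 to 41.6, from 3 intact UMIs) and 2.39-fold in EC_ART, with values of 1.41-fold lower in EC_VEN-PV+, 1.58-fold lower in EC_VEN-PV- and 1.82-fold lower in EC_BAR. Pdgfb was between 1.45-fold lower in EC_CAP-PV- and 2.15-fold lower in EC_VEN-PV- (1.59 to 2.89), all 5 below equality. Cd34 lay between 1.05-fold higher in EC_VEN-PV- and 1.93-fold higher in EC_CAP-PV-.

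**Figure D4:**
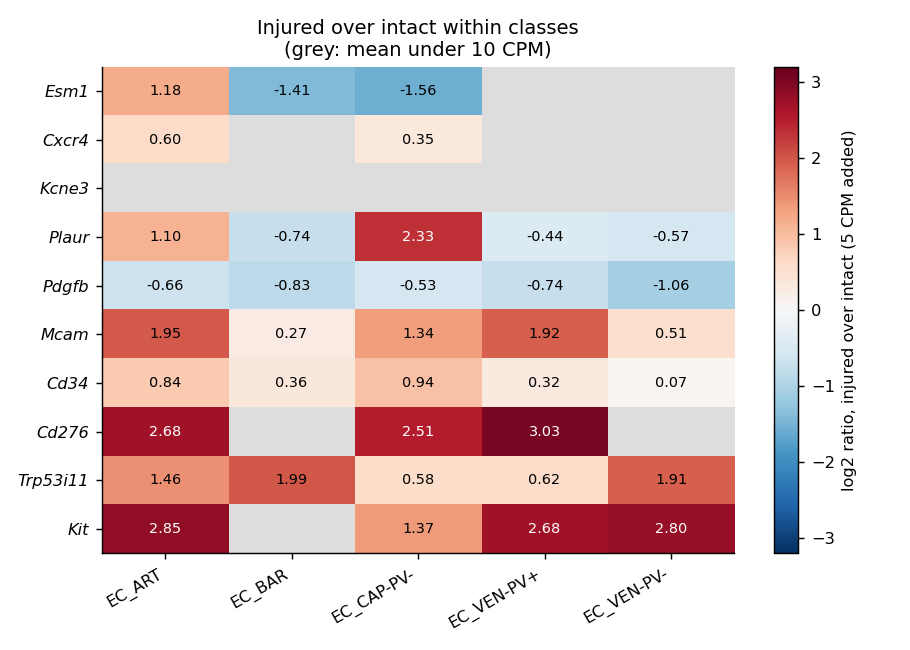
Log2 ratio of injured over intact CPM, with 5 CPM added to each, for each gene (rows) in the 5 endothelial classes with at least 20 cells in both libraries (columns), from blue for lower to red for higher after injury, and grey where the mean was under 10 CPM. Cd276, Kit, Mcam, Trp53i11 and Cd34 are above equality in every coloured cell and Pdgfb is below it in all 5 classes. Esm1 is red at 1.18 in EC_ART and blue at -1.56 in EC_CAP-PV-. The filter fixed the direction of Cd276 throughout, of Kit in all but EC_CAP-PV-, and of Esm1 and Plaur in EC_CAP-PV-.

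Injured EC_TIP cells held UMIs of more members per cell than the other classes of at least 20 thinned cells. Of the 95 injured EC_TIP cells thinned to 3000 UMIs, 79 (83.2%, 74.1 to 90.1) held UMIs of at least 3 of the 10 genes, with a mean of 4.22 ± 1.63 genes (SD over cells) and up to 8. Next among classes of at least 20 thinned cells were injured EC_CAP-PV- at 60.6% (48.3 to 72.0), EC_IMMAT at 48.4% and EC_ART at 43.5%, and the lowest injured class was EC_BAR at 21.2%. Intact classes lay between 9.04% in EC_VEN-PV+ and 47.8% in EC_CAP-PV+. Fibroblast-like cells reached 2.56% in the injured library and 0 of 316 in the intact one, with an exact upper bound of 1.16%. Since the genes were chosen for EC_TIP and that class was made from the same cells, this too is a description. Higher levels of single genes raise such a share by themselves. Whether members shared cells beyond that was not tested.

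**Figure D5:**
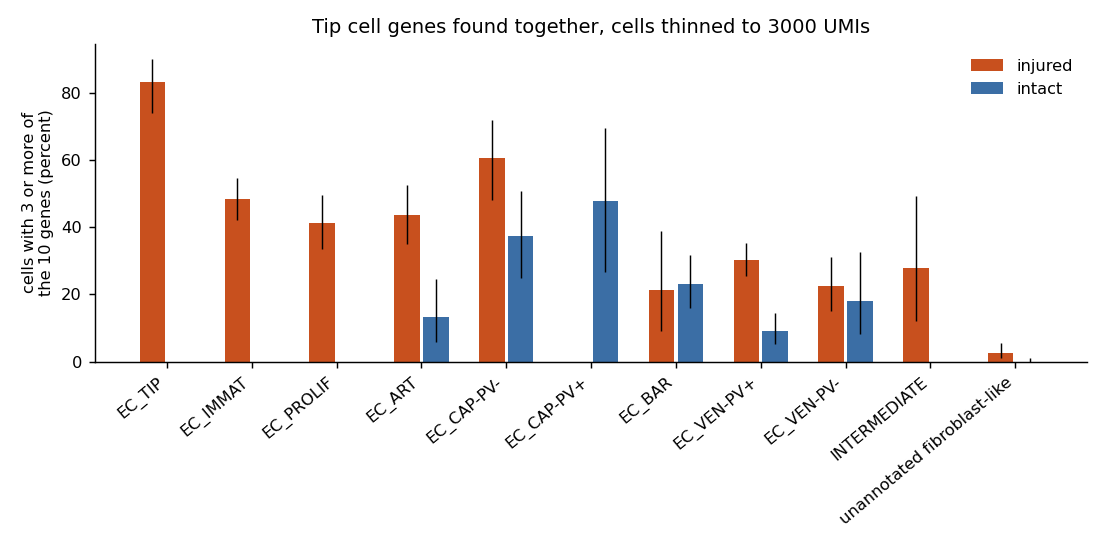
Percent of cells, each thinned to 3000 UMIs, that hold UMIs of at least 3 of the 10 genes (vertical axis) by class, injured bars left of intact bars, with exact binomial 95% intervals; classes with under 20 thinned cells in a library are not drawn. Injured EC_TIP stands at 83.2%, above injured EC_CAP-PV- at 60.6% and fibroblast-like cells at 2.56%.

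Within EC_TIP, cells with and without Esm1 differed in depth, with medians of 27595 UMIs in the 48 cells that had it and 8551 in the 52 that did not, so they were compared after thinning. Of 25 thinned EC_TIP cells with an Esm1 UMI, 64.0% also had Cxcr4, against 31.4% of 70 without. Trp53i11 was found in 76.0% and 55.7%, Kit in 36.0% and 37.1%, and Plaur in 4% and 17.1% of cells with and without Esm1. The mean number of the other 9 genes was 4.6 in cells with Esm1 and 3.73 in cells without. Cells of 1 library are not replicates, and no test was made.

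The 4 intact EC_TIP cells that remained held 12927 UMIs, among them 4 of Esm1, 1 of Cxcr4, 2 of Pdgfb, 4 of Mcam, 12 of Cd34, 7 of Trp53i11, 2 of Kit and 0 of Plaur, Cd276 and Kcne3. With the 17 cells of shared barcodes put back, the 21 cells held 26580 UMIs, with 5 of Esm1, 2 of Cxcr4 and 2 of Cd276. A comparison of EC_TIP cells between libraries was not possible at this depth.

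Partners of the members were read from lists of known ligands, receptors and relatives. Beside each list count stand the shares of all measured genes: 4.79% higher and 6.82% lower in the pool, and 1.89% higher and 3.9% lower in EC_TIP. A gene under 10 CPM in 1 group passed the filter through the other group alone, which fixed its direction. In the pool this held for Mmp14, Nid2, Chst1, Itgav, Itgb3 and Zmat3 through injured cells and for Cd274 and Sesn1 through intact cells. In EC_TIP it held for Pgf, Plau and Kcnq1 through that class and for Lgals3 through the other classes. Nothing is read from the list counts. Of 22 other tip cell genes, 20 were measured in the pooled comparison, 9 of them higher and 1 lower with a median log2 ratio of 0.42, and in EC_TIP 11 of 21 were higher and 0 lower than in the other injured classes, with a median of 1.25. Mmp14, a membrane-anchored matrix protease, had 126 CPM in injured and 9.03 in intact cells, 13.9-fold higher, and Nid2, a basement membrane protein, was 9.36-fold higher. The Notch ligand Dll4 was 2.23-fold lower, at 61.4 CPM in injured and 137 in intact cells, and Robo4, a guidance receptor, had 148 CPM in injured and 211 in intact cells. In EC_TIP the highest of that list were Pgf, a VEGF family ligand, at 16.9-fold (121 CPM in EC_TIP and 7.16 in the other classes) and Adm, which encodes adrenomedullin, at 7.27-fold, and the lowest were Nrp2 at 1.58-fold and Efnb2 at 1.56-fold lower, both under the threshold. Dll4, named here after its values were seen, had the other direction in EC_TIP, at 134 CPM against 53.4 in the other injured classes, 2.51-fold higher. Several of these genes overlap the tip cell markers used above to check the label. The list was chosen with earlier results of these data known, and EC_TIP was made from the same cells. Its counts are therefore a description, as for the members.

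Ligands of CXCR4 and KIT had lower levels in both contrasts in which the receptors were higher, short of 2-fold for Kitl in EC_TIP. Cxcl12, the CXCR4 ligand, had 326 CPM in injured and 1936 in intact cells, 5.94-fold lower (5.76 to 6.14), and 88.8 CPM in EC_TIP and 352 in the other injured classes, 3.96-fold lower (3.41 to 4.63). Kitl, the KIT ligand, had 212 CPM in injured and 439 in intact cells, 2.07-fold lower (1.97 to 2.19), and in EC_TIP it had 117 CPM against 222 in the other classes. Ackr3, the other CXCL12 receptor, had 24.6 CPM in injured and 42.5 in intact cells and 43.6 CPM in EC_TIP and 22.5 in the other classes, both under 2-fold. Of 11 plasminogen activation genes, 4 were measured in the pool: Itgb3 (3.97-fold) and Itgav (3.05-fold), integrin chains, were higher, Plat, which encodes tissue plasminogen activator, was 3.98-fold lower, and Itgb1, another integrin chain, lay at 1.85-fold. In EC_TIP, Plau, the urokinase gene and PLAUR ligand, had 21.3 CPM against 8.99 in the other injured classes, a ratio of 2.37 that is under the threshold once 5 CPM is added. Itgb3 lay at 1.16-fold and Plat at 1.86-fold lower in EC_TIP, both under 2-fold.

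In the CD34 family, Podxl was 2.39-fold lower in injured cells and 3.01-fold lower in EC_TIP, and Emcn was 1.25-fold higher and 1.09-fold lower. In the B7 family, 2 of 7 genes were measured in the pool and both were lower after injury, Cd274, which encodes PD-L1, at 12.8-fold (2.95 CPM in injured and 37.6 in intact cells) and Vsir at 2.21-fold, while Vsir was 2.33-fold higher in EC_TIP. Of 4 MCAM ligand genes, Lgals1, which encodes galectin-1, was 8.12-fold higher in injured cells and 2.63-fold higher in EC_TIP, and Lgals3 was 2.36-fold lower and 8.68-fold lower. The laminin chain genes Lamc1 (2.25-fold, pooled) and Lama4 (2.78-fold, EC_TIP) were each past 2-fold in 1 of the 2 contrasts, with Lama4 at 1.35-fold in the pool and Lamc1 at 1.79-fold in EC_TIP. Other PDGF genes stayed under 2-fold: Pdgfa was 1.52-fold lower and Pdgfd 1.12-fold lower in the pool, and in EC_TIP Pdgfa was 1.46-fold higher and Pdgfd 1.12-fold lower.

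No p53 target was past 2-fold higher in either contrast. Of 8, 0 were higher and 2 lower after injury, Sesn1 at 3.05-fold (9.91 CPM in injured and 30.2 in intact cells) and the cell cycle inhibitor Cdkn1a at 2.67-fold, and the highest after 5 CPM was added were Bax at 1.68-fold and Phlda3 at 1.59-fold. In EC_TIP 0 of 7 were higher and Cdkn1a was 2.77-fold lower, with Ccng1 at 1.56-fold, Bax at 1.20-fold and Phlda3 at 1.60-fold lower. None of 7 KCNE family and channel partner genes was measured in the pool, and Kcnq1, at 10.7 CPM in EC_TIP and 9.66 in the other classes, was the 1 measured in that contrast. Of 10 stalk and resting endothelial genes, 1 was higher and 2 lower in the pool: the apelin receptor gene Aplnr at 3.80-fold higher, the Notch target Hes1 at 4.55-fold lower and the VEGF receptor Flt1 at 2.68-fold lower, with Tie1 at 1.23-fold higher. In EC_TIP 0 were higher and 4 lower, among them Vwf at 4.23-fold lower and Flt1 at 2.72-fold lower, with Hes1 at 1.71-fold and Robo4 at 1.42-fold higher.

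Across the 9 injured classes of at least 20 cells, the members' levels followed one another to different degrees. Pearson's r of log2 CPM (5 CPM added) was 0.87 between Mcam and Cd276 and between Cxcr4 and Pdgfb, 0.83 between Cd276 and Kit, 0.15 between Esm1 and Trp53i11 and -0.08 between Kcne3 and Trp53i11. Among 4356 or, for Kcne3, 4357 genes that reached 50 CPM in a class, those most like each member were Mrpl15 for Esm1 (0.97), Pon2 for Cxcr4 (0.95), Bcl7c for Kcne3 (0.92), Rflnb for Plaur (0.96), Ptp4a3 for Pdgfb (0.96), Tpd52l2 for Mcam (0.96), Ccdc85b for Cd34 (0.98), Surf4 for Cd276 (0.97), Magi1 for Trp53i11 (0.94) and Map4k5 for Kit (0.95). The thrombin receptor gene F2r was among the 3 most like both Mcam and Cd276, the laminin chain gene Lamc1 among those for Cxcr4 and the semaphorin receptor gene Plxnd1 among those for Kit. The 9 points share 1 library and its depth, and these names were picked as the highest of all genes compared. Of the 30 names, 0 were found again with the classes of both libraries and 4 with Spearman's rho.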

How the data were processed

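RNA of single sorted cells was measured in 1 injured and 1 intact library of pooled nerves. The authors deposited UMI counts per gene and barcode, made with Cell Ranger 3.0.2 per the file headers, and a table with a class for each annotated cell. Cell Ranger 6.1.2, Seurat 4.0.1 and builds mm10 and GRCm38 are listed in the submitters' processing notes. How cells were filtered and classed, and how doublets were treated, is not stated, and no doublet caller was run.

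The members and lists were chosen with earlier results of these data known. A cell was left out where its barcode held at least 5 times its UMIs in the other library. Counts were summed per class and library and divided by all UMIs of those cells (CPM). Classes under 20 cells entered no ratio of their own, but their cells are part of the pooled and summed classes. Intervals are exact 95% intervals (Poisson for CPM, Clopper-Pearson for shares, conditional binomial for ratios) and cover counting error only. A count of 0 allows 3 UMIs. With 1 library per condition there is no test and no p-value. Called means at least 2-fold with 5 CPM added, at a mean of at least 10 CPM. Cells were thinned to 3000 UMIs with seed 1. Fibroblast-like cells are unannotated barcodes of at least 1000 UMIs with at least 4 fibroblast markers, whose UMIs outnumber those of the pan-endothelial list. Named genes are the members, the 3 genes most like each, and of each list the 2 highest and 2 lowest. The other list genes and the likeness use CPM with 5 added. Counting and ratio code was tested on simulated data. Gene positions are from GENCODE M21 (GRCm38), where 9 of 10 member IDs have the same version and Pdgfb another. Alternatives changed the cells, weights, filter, added CPM, thinning and totals. Python 3.11.15, NumPy 2.4.6, SciPy 1.17.1, pandas 2.3.3 and matplotlib 3.10.9 were used. One result of the plasminogen activation list is not reported here.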

Additional observations from a re-analysis of the deposited data

Results flagged for a closer look

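Esm1 took opposite directions in 2 classes: its log2 ratio of injured over intact CPM was 1.18 in EC_ART and -1.56 in EC_CAP-PV-. The difference between the classes was not tested, and the EC_CAP-PV- value rests on 9 injured and 17 intact UMIs and passed the filter through the intact cells alone.

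Barcodes with no class in the authors' table, 516 injured and 738 intact, also held members at different levels. The ratio of injured over intact CPM there was 3.69 for Esm1 (31.8 CPM in injured and 8.63 in intact barcodes), 5.70 for Cxcr4 (28.3 and 4.96 CPM), 2.68 for Mcam (216 and 80.9 CPM), 5.33 for Cd34 (273 and 51.3 CPM), 30.4 for Cd276 (39.3 and 1.29 CPM), 2.48 for Trp53i11 (83.0 and 33.4 CPM) and 8.11 for Kit (24.5 and 3.02 CPM). For Plaur the ratio was 2.28 (30.5 and 13.4 CPM) and for Pdgfb 2.12 (65.3 and 30.8 CPM). Pdgfb thus had the other direction here than in the pooled endothelial classes. Kcne3 had 1 UMI in each library. Fibroblast markers summed to 16895 CPM in the injured and 11206 CPM in the intact unannotated barcodes, and pan-endothelial markers to 2326 and 1546 CPM. Which cell types these barcodes hold, and their part in the ratios, was not tested.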

How the results depend on the processing

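No paired analysis was possible because each condition is 1 library. The count of members higher in the injured library, 5, was 3 with classes weighted equally, 2 with a minimum mean of 50 CPM, and 3 without EC_TIP, EC_IMMAT, EC_PROLIF and EC_CAP-PV+, where 1 was lower (Pdgfb). The last setting and those without EC_TIP or without EC_CAP-PV+ were chosen after seeing the data. In the other settings 4 or 5 were higher and 0 lower, and 5 or 6 were higher in EC_TIP. Shares of all genes are given below for some settings only, so nothing is read from these member counts. No called value changed sign. Of 160 member values of the pooled comparison, 153 kept their direction and 153 their side of 2-fold, and of 130 in EC_TIP, 127 and 124. Pooled Esm1 turned below equality with the mean per cell (log2 -0.37), with equal weights (-0.09) and without cells with G2/M genes (-0.13). Trp53i11 was under 2-fold with the mean per cell (0.93) and with equal weights (0.94), as was Cxcr4 with equal weights (0.73). The causes were not tested. Pooled values of Cd276 and Kit with every annotated cell kept were 3.26 and 2.80, against 3.47 and 2.90. The share of all genes called was 2.43% higher and 3.09% lower with no filter in the pool, 2.91% higher with equal weights, 0.819% and 2.06% with no filter in EC_TIP, and 3.36% and 7.44% after thinning. Low counts limit what can be read for Kcne3 in all classes, and for Cd276, Kit and Cxcr4 in the intact library.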
